A study of Mus musculus with 32 samples.

Results

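Tlr6 and Tlr9 encode Toll-like receptors and C3ar1 encodes the receptor of complement fragment C3a, and the lung levels of these 3 genes are described here in mice exposed to World Trade Center dust with or without a drug. The genes were chosen by symbol, through the Ensembl identifier that the deposited table carries for each, out of 26305 genes with such an identifier and 54640 identifiers in all. All 3 were among the 2749 annotated genes that averaged 0.1 FPKM or more across mice and were tested. FPKM counts sequenced fragments relative to transcript length and to the size of the library, so levels can be compared between genes. Between mice the values depend on how libraries are scaled, as described below.

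The study measured whole-lung RNA in 4 groups of 4 mice. All 16 mice were wild-type C57BL/6J males, 6 to 8 weeks old when purchased. The control group was unexposed and untreated. The WTCPM group received World Trade Center particulate matter, dust collected around Ground Zero, by intranasal instillation and no drug. A further group received the same dust and rosoxacin, a quinolone antibiotic, by intraperitoneal injection at 5 mg/kg, and the last received the dust and dexamethasone, a synthetic glucocorticoid, by the same route at 0.1 mg/kg. These drug groups are called rosoxacin and dexamethasone below, and all their mice were dust-exposed, so neither drug was given without dust. The sources used here do not give the dust dose, the interval to sampling or a vehicle for the controls. Each mouse was sequenced on 2 lanes, which were averaged, and n counts mice, which the labels give as separate animals.

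Toll-like receptors are membrane proteins of innate immune cells that bind microbial or damage-derived molecules and signal through adaptors such as MyD88 to NF-kB, which switches on cytokine and chemokine genes. TLR6 acts at the cell surface in a pair with TLR2 and recognises diacylated lipopeptides, whereas TLR9 resides in endosomes and recognises unmethylated CpG DNA. C3AR1 is a G protein-coupled receptor for the anaphylatoxin C3a, which is cut from C3 when complement is activated, and it is found on macrophages and other myeloid cells. In the lung these receptors lie at the point where inhaled particles and microbes are sensed.

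On mm10 in GENCODE M21, Tlr6 (ENSMUSG00000051498.6) lies on the minus strand of chromosome 5 from 64952031 to 64960097, Tlr9 (ENSMUSG00000045322.10) on the plus strand of chromosome 9 from 106222598 to 106226883, and C3ar1 (ENSMUSG00000040552.8) on the minus strand of chromosome 6 from 122847138 to 122856161. Each has 2 exons at most per transcript, and 0 other annotated genes overlap any of them. The nearest protein-coding gene to Tlr6 is Fam114a1 at 9974 bases, followed by its paralogue Tlr1 at 18468 bases. Tlr9 lies 6572 bases from Alas1, and C3ar1 lies 1772 bases from Foxj2. The deposited table holds 2 transcripts of Tlr6, of which one is listed at 0 in all 32 libraries, and 1 transcript each of Tlr9 and C3ar1.

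Tlr6 and Tlr1 share sequence, which matters for reads of the 50 bases that the labels give. Of the 3628 windows of 50 bases in the main Tlr6 transcript, 456 (12.569%) also occur in a transcript of another gene, 454 of them in Tlr1 and inside the coding sequence. The corresponding number was 0 for Tlr9 (of 3429 windows) and 0 for C3ar1 (of 4256). The longest run that both coding sequences hold is 229 bases long, and it is shown in capitals, with 30 Tlr6 bases on either side, because reads from inside it cannot be assigned to one of the genes by sequence. The Tlr6 stretch lies in the coding sequence at chr5:64953798-64954086 (mm10, minus strand), and the same capitals stand in Tlr1 within chr5:64925507-64925795.
Tlr6: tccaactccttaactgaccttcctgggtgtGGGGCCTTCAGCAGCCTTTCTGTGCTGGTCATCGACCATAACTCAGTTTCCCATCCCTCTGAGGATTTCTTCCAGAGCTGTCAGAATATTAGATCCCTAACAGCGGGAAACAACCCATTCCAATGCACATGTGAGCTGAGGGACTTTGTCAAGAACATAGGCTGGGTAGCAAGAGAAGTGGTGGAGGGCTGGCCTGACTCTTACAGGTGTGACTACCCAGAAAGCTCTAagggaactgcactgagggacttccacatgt
Tlr1 has no identifier of its own in the deposited table, so its level is not analysed here, and the Tlr6 values below may include reads of Tlr1 or lack reads given to it. The sources used here do not say how such reads were divided.

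The sequences before the transcription starts are shown because dexamethasone activates the glucocorticoid receptor, which is known to act on genes of NF-kB and AP-1. Each is the 250 bases before a RefSeq start on GRCm38.p6, the build also called mm10, 5′ to 3′ on the gene's strand, with matches to the AP-1 motif TGANTCA in capitals. They are C3ar1 at chr6:122856158-122856407 (minus strand), Tlr9 at chr9:106222348-106222597 (plus strand) and Tlr6 at chr5:64960049-64960298 (minus strand), the start farther upstream of the 2 that RefSeq lists for Tlr6.
C3ar1: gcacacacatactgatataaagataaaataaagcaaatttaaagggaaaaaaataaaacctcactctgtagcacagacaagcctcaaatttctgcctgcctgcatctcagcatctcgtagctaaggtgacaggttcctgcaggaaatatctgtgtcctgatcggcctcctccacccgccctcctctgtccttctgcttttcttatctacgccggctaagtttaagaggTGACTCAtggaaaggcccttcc
Tlr9: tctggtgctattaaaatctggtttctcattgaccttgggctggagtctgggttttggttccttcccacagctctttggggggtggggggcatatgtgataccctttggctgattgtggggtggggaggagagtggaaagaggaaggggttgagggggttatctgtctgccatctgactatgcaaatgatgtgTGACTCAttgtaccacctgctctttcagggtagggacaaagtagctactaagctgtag
Tlr6: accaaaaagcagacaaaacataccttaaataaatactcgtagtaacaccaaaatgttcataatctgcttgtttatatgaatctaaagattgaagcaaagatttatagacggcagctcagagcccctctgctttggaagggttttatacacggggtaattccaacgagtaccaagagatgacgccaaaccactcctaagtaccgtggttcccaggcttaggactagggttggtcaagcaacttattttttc
C3ar1 holds 1 AP-1 match, starting 22 bases before the transcription start (position -22), and Tlr9 holds 1, starting at position -58. The Tlr6 window holds 0. Both strands were searched, and 6.749% of the 32851 RefSeq windows of this length hold the motif. This motif and those below were chosen after the windows were seen. The NF-kB consensus, the glucocorticoid receptor half-site AGAACA, the interferon-stimulated response element and the cyclic AMP response element TGACGTCA had 0 matches in these 3 windows, against 3.899%, 16.085%, 2.977% and 1.546% of all windows. The window of the other Tlr6 start, chr5:64959167-64959416, holds 2 overlapping matches to the interferon-stimulated response element and 0 to the other 4 motifs. A match describes letters and not binding, and the absence of one in this window shows nothing about the factors.

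Facts of the whole series bear on every value below. Depth is unknown, because the sources used here do not give read numbers. Of all FPKM, 99.89% lies in 28335 assembled loci that the files do not pair with gene names, and whether any of them also holds reads of these 3 genes cannot be seen. Summed FPKM ran from 704683 to 1329953 over the mice, and the rosoxacin mice had 924277 to 1329953 against 742168 to 803130 in WTCPM. The rosoxacin mice also carry the lowest library numbers, 1 to 4, against 5 to 23 in the other groups, and the sources used here do not say what this number, which follows the letter S in the labels, stands for. The median log2 difference of all tested genes was -0.16 for rosoxacin against WTCPM in the deposited values. It was -0.0077 with median-of-ratios scaling, -0.12 with quantile normalisation and -0.46 when values were rescaled to TPM, so rosoxacin differences are also given relative to the deposited median. None of the 19 macrophage and monocyte markers, the 12 B cell markers or the 10 lung epithelial markers has an identifier of its own, so the tissue label could not be checked against them, and the cells that carry the 3 receptors cannot be named from these data. In whole lung, fewer cells of a type and less RNA per cell cannot be told apart.

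C3ar1 had the highest level of the 3 genes, with a mean of 0.994 FPKM over the 16 mice, followed by Tlr9 at 0.751 and Tlr6 at 0.542. Among the 2749 tested genes, whose median level was 0.218 FPKM, they ranked 32, 107 and 292. These ranks describe the annotated genes alone, because most lung RNA lies in the unnamed loci. C3ar1 exceeded Tlr6 in all 16 mice and Tlr9 in 13, the exceptions being control 4, rosoxacin 3 and rosoxacin 4. Tlr9 exceeded Tlr6 in 14 mice, the exceptions being dexamethasone 2 and 3. The standard deviation between mice of one group was 0.113 FPKM for C3ar1, 0.139 for Tlr9 and 0.091 for Tlr6, and that between the lanes of one mouse was 0.153, 0.133 and 0.0976. The lane values are for a single lane, whereas mouse values are averages over lanes. The lane error of such an average was 0.108 FPKM for C3ar1, 0.0938 for Tlr9 and 0.069 for Tlr6. It was thus close to the spread between mice for C3ar1 and smaller than it for Tlr9 and Tlr6.

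**Figure D1:**
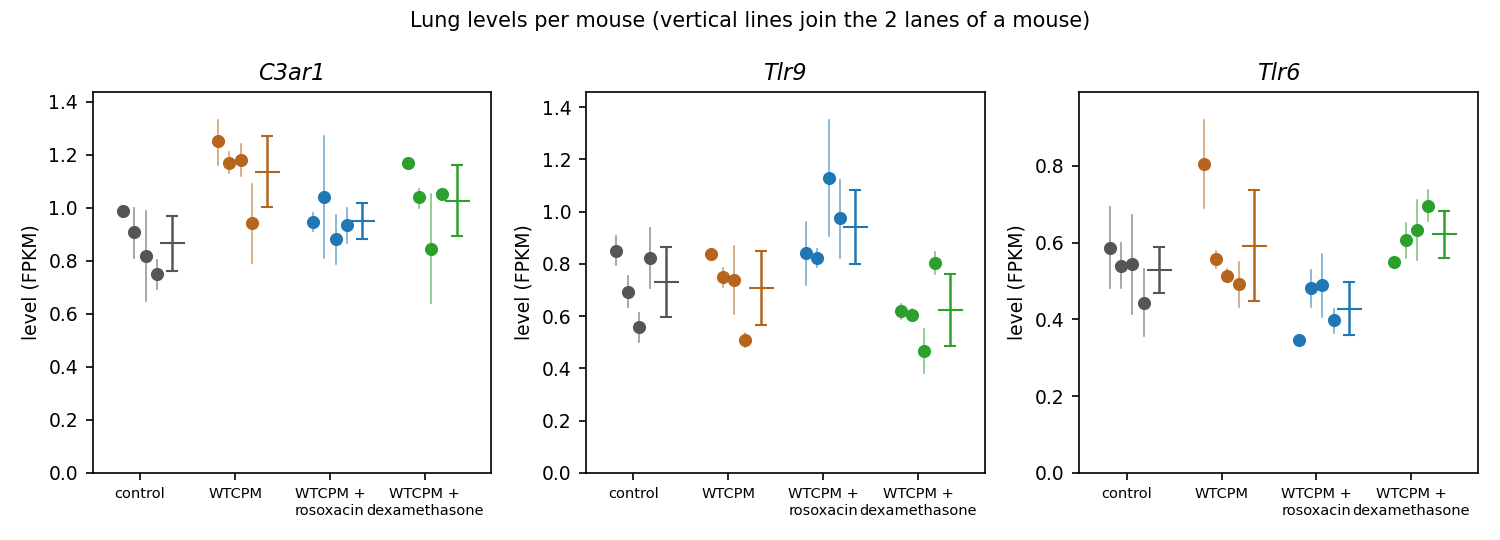
Levels of C3ar1, Tlr9 and Tlr6 in FPKM on the y axis, 1 point per mouse in 4 groups of 4, with thin lines joining the lanes of a mouse and bars giving the group mean ± SD. C3ar1 is highest on average in WTCPM (1.13 FPKM), and in the rosoxacin group Tlr9 is highest (0.941) and Tlr6 lowest (0.428).

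C3ar1, the anaphylatoxin receptor, was highest after dust alone and lowest in unexposed lungs. The control mice were at 0.988, 0.908, 0.819 and 0.748 FPKM. The WTCPM mice were at 1.25, 1.17, 1.18 and 0.941, so that 3 of 4 lay above every control and WTCPM 4 lay among the controls. The group means were 1.13 ± 0.134 and 0.866 ± 0.105 (SD, n = 4 each). By limma the log2 difference was 0.35 (SE 0.15, 95% interval 0.04 to 0.67, unadjusted p = 0.0285), and it did not pass after adjustment over all tested genes (adjusted p = 0.834). Of the 3 receptors 0 passed in this comparison or in any of the other 5. Here no gene did (0 of 2749, 0.0%), and 5.13% had an unadjusted p under 0.05 by limma. The direction was the same in each of the 12 processing alternatives and without any 1 mouse, with log2 differences of 0.19 to 0.45 and 0.29 to 0.43. Alternatives that change only the genes tested, the groups fitted or the block could not change this difference. Leaving out a drug-treated mouse could not change it either, so such refits say nothing about its direction.

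With a drug added to dust, C3ar1 lay between the control and WTCPM means. The rosoxacin mice were at 0.947, 1.04, 0.88 and 0.933 FPKM (0.951 ± 0.0676, n = 4), and the dexamethasone mice at 1.17, 1.04, 0.845 and 1.05 (1.02 ± 0.134, n = 4). Both groups overlapped WTCPM and control. Against WTCPM the log2 difference was -0.23 for rosoxacin (SE 0.15, limma adjusted p = 0.477) and -0.13 for dexamethasone (SE 0.15, limma adjusted p = 0.952). Relative to the median of all tested genes the rosoxacin difference was -0.07. After rescaling to TPM the log2 difference for rosoxacin was -0.65 and passed limma's test (adjusted p = 0.0432), in a fit where the median gene was at -0.46, and with median-of-ratios scaling it was -0.009. Against control the log2 differences were 0.13 for rosoxacin and 0.22 for dexamethasone (limma adjusted p = 0.699 and 0.997), the former being 0.24 relative to the median of all tested genes and turning to -0.20 after rescaling to TPM. In the order WTCPM, dexamethasone, rosoxacin, control, no neighbours differed beyond the spread between mice, and the 95% intervals leave room for log2 differences of -0.45 to 0.18 for dexamethasone against WTCPM and -0.54 to 0.08 for rosoxacin against WTCPM.

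**Figure D2:**
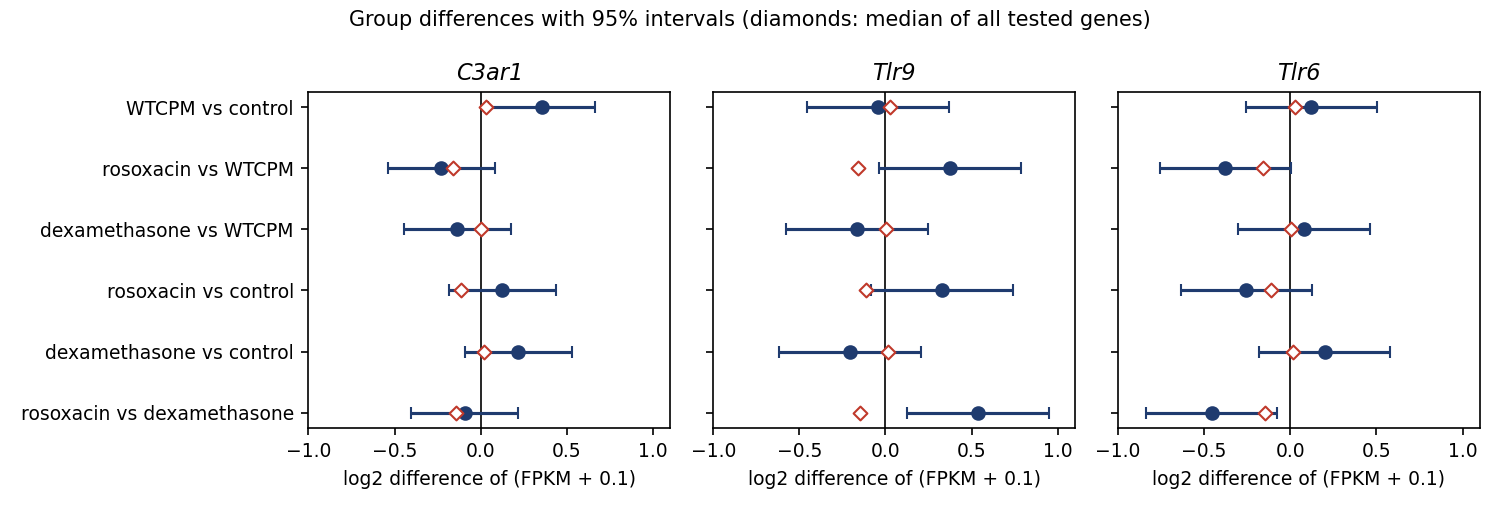
Log2 differences of FPKM + 0.1 on the x axis for 6 group comparisons, with limma's 95% intervals as bars and the median of all 2749 tested genes as diamonds. The Tlr9 interval for rosoxacin against dexamethasone (0.13 to 0.95) and the Tlr6 interval (-0.84 to -0.08) lie on opposite sides of 0, and neither comparison passed after adjustment.

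Tlr9, the endosomal receptor of CpG DNA, was highest in rosoxacin mice and at similar means in dust-exposed and control mice. The rosoxacin mice were at 0.84, 0.822, 1.13 and 0.974 FPKM (0.941 ± 0.142, n = 4). The control mice were at 0.851, 0.694, 0.557 and 0.821 (0.731 ± 0.134) and the WTCPM mice at 0.839, 0.748, 0.738 and 0.507 (0.708 ± 0.141). Each of these groups had mice within the rosoxacin range, so the groups overlapped. The dexamethasone mice were lowest on average, at 0.618, 0.604, 0.465 and 0.803 (0.623 ± 0.139), and all 4 lay below all 4 rosoxacin mice. For the latter pair the log2 difference was 0.54 (SE 0.20, 95% interval 0.13 to 0.95, unadjusted p = 0.0137) and limma's adjusted p was 0.125. In that comparison 3.46% of the tested genes had all rosoxacin mice above all dexamethasone mice, and 4.26% passed the test, in 117 genes, with 20.7% at an unadjusted p under 0.05. Relative to the median of all tested genes the difference was 0.68, and it was 0.19 after rescaling to TPM (limma adjusted p = 0.651) and 0.76 with median-of-ratios scaling (0.0677).

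Against WTCPM the Tlr9 difference with rosoxacin was 0.37 on the log2 scale (SE 0.20, limma adjusted p = 0.356), or 0.53 relative to the median of all tested genes, in a comparison where 15 genes (0.546%) passed. This difference was -0.028 after rescaling to TPM and 0.59 with median-of-ratios scaling, so its sign depends on how the larger FPKM totals of the rosoxacin mice are treated. Against control it was 0.33 (SE 0.20, limma adjusted p = 0.385; 3.31% of the tested genes passed), 0.44 relative to the median and 0.015 after rescaling to TPM. Dust against control gave -0.04 (SE 0.20, 95% interval -0.46 to 0.37, limma adjusted p = 0.979), with a sign that changed when control 1, control 4 or WTCPM 4 was left out. Dexamethasone against WTCPM gave -0.16 (SE 0.20, 95% interval -0.58 to 0.25, limma adjusted p = 0.955), where 0 genes (0.0%) passed and 5.38% had an unadjusted p under 0.05. In the order rosoxacin, control, WTCPM, dexamethasone, neighbouring groups did not differ beyond the spread between mice.

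Tlr6, the partner of TLR2, was lowest in rosoxacin mice. These were at 0.345, 0.481, 0.489 and 0.397 FPKM (0.428 ± 0.0692, n = 4), below all 4 WTCPM mice at 0.805, 0.556, 0.514 and 0.491 (0.591 ± 0.145). The gap between the groups was narrow, since rosoxacin 3 and WTCPM 4 differed by less than the lanes of either mouse did. The log2 difference was -0.38 (SE 0.18, 95% interval -0.76 to 0.00, unadjusted p = 0.0519, limma adjusted p = 0.319), and -0.22 relative to the median of all tested genes. In that comparison 8.95% of the tested genes had all rosoxacin mice below all WTCPM mice. The difference passed limma's test after rescaling to TPM (-0.76, adjusted p = 0.0437) and was -0.18 with median-of-ratios scaling.

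The dexamethasone mice had the highest mean of Tlr6, at 0.55, 0.607, 0.633 and 0.696 FPKM (0.621 ± 0.0606, n = 4), and all lay above all rosoxacin mice. Rosoxacin against dexamethasone gave a log2 difference of -0.46 (SE 0.18, 95% interval -0.84 to -0.08, limma adjusted p = 0.162), against 9.68% of the tested genes with this separation, or -0.31 relative to the median of all tested genes. It passed limma's test after rescaling to TPM (-0.79, adjusted p = 0.0328), where the median gene was at -0.41, and was -0.25 with median-of-ratios scaling (adjusted p = 0.488). The control mice were at 0.587, 0.539, 0.544 and 0.443 (0.528 ± 0.0606). Rosoxacin against control gave -0.26 (SE 0.18, limma adjusted p = 0.476) with overlapping groups, or -0.14 relative to the median, and lane 2 alone gave -0.028. Dust against control gave 0.12 (SE 0.18, 95% interval -0.26 to 0.50, limma adjusted p = 0.936), a difference that rests on WTCPM 1 and was -0.015 without it. Lane 1 alone gave -0.027 for dust against control and lane 2 alone 0.30, and all 4 control mice had a higher Tlr6 value on lane 1 than on lane 2. Dexamethasone against control gave 0.20 (SE 0.18, limma adjusted p = 0.997, with 0.0364% of the tested genes passing), which became 0.44 on lane 2 and -0.0088 on lane 1. In the order dexamethasone, WTCPM, control, rosoxacin, neighbouring groups did not differ beyond the spread between mice.

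Tlr9 and Tlr6 stood on opposite sides in the rosoxacin group, and their ratio within a mouse does not depend on how a library is scaled. The ratio of Tlr9 to Tlr6 FPKM was chosen after the values were seen and is given as a description without a test. It was 2.44, 1.71, 2.31 and 2.45 in the rosoxacin mice, with a mean of 2.23 ± 0.351. It was 1.04, 1.35, 1.44 and 1.03 in WTCPM mice (1.21 ± 0.207) and 1.12, 0.996, 0.734 and 1.15 in dexamethasone mice (1.00 ± 0.192), all below every rosoxacin mouse. The control mice had 1.45, 1.29, 1.02 and 1.85 (1.40 ± 0.346), and control 4 lay above rosoxacin 2. On lane 1 alone the rosoxacin mice, at 1.98 to 2.72, were apart from all others, at 0.687 to 1.34, whereas on lane 2 alone their range of 1.49 to 2.63 overlapped that of control (1.21 to 2.62) and WTCPM (1.19 to 1.64). Only rosoxacin mice have library numbers 1 to 4, and the part of that number and of reads shared with Tlr1 in this pattern was not tested.

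**Figure D3:**
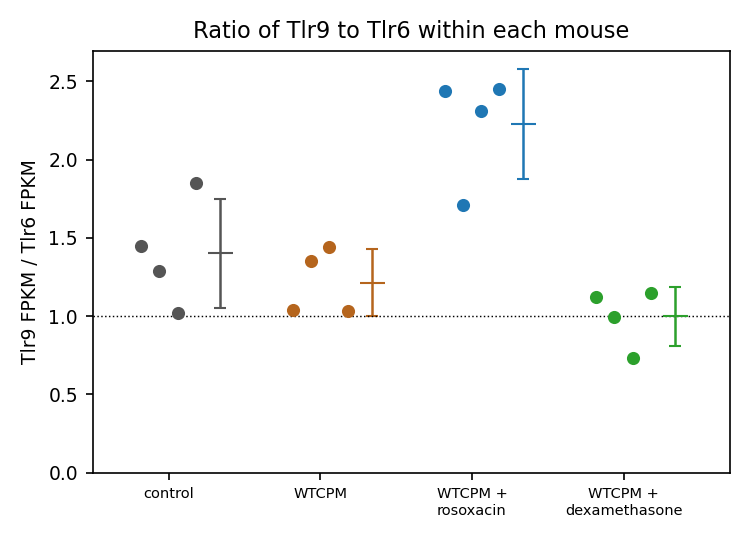
Ratio of Tlr9 to Tlr6 FPKM on the y axis, 1 point per mouse in 4 groups of 4, with bars giving the mean ± SD and a dotted line at a ratio of 1. The rosoxacin mice lie between 1.71 and 2.45, and 1 control mouse, at 1.85, lies within that range.

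With the library number as a covariate in limma the log2 difference of Tlr9 between rosoxacin and dexamethasone was 0.38 instead of 0.54 (adjusted p = 0.642). That of Tlr6 was -0.53 instead of -0.46 (adjusted p = 0.462). The numbers run from 1 to 4 in rosoxacin and from 9 to 22 in dexamethasone mice, so this fit cannot tell the number from the group. C3ar1 had similar means in the drug groups, with a log2 difference of -0.093 (SE 0.15, 95% interval -0.40 to 0.22, limma adjusted p = 0.777), or 0.052 relative to the median of all tested genes. It became 0.051 with the covariate, 0.13 with median-of-ratios scaling and -0.45 after rescaling to TPM (limma adjusted p = 0.142).

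Only 20 of the 125 genes in 8 lists of the Toll-like receptor and complement pathways have an identifier of their own, and 10 were tested, the 3 receptors included. The other 7 are Tlr11, Tlr12, the complement factor I gene Cfi, and the response genes Il12b, Cxcl1, Cxcl2 and Ccl4. For WTCPM against control 0 of the 10 passed and 7 had higher means on the log2 scale, with a median of 0.22 against 0.029 for all tested genes. For rosoxacin against WTCPM 0 passed and 2 were higher, with a median of -0.25 against -0.16, and for dexamethasone against WTCPM 0 passed and 4 were higher, with a median of -0.15 against 0.0043. For rosoxacin against control 1 of the 10 passed, Tlr12, where 3.31% of all tested genes did, and 0 passed in the remaining comparisons. The cofactor list (0 of 12 genes) and the list of other pattern recognition receptors (0 of 14) had no identifiers. Of the 26 signalling genes only Sarm1 had one, below the filter. Of the 24 complement components 5 had one and none was tested: C8a, C8b, C9 and Mbl2 were listed at 0 in every mouse and Fcnb was below the filter.

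Tlr12, which with Tlr11 senses profilin of apicomplexan parasites in mice, gave the one call among these genes. The control mice were at 0.999, 1.01, 1.13 and 0.746 FPKM (0.971 ± 0.16, n = 4). The rosoxacin mice were at 0.453, 0.391, 0.445 and 0.591 (0.47 ± 0.0853), all below every control. Tlr12 fell by 0.91 on the log2 scale for rosoxacin against control (SE 0.22, limma adjusted p = 0.0331), or by 0.80 relative to the median of all tested genes. In that comparison 9.02% of the tested genes had all rosoxacin mice below all controls. The call was lost with median-of-ratios scaling (-0.76, limma adjusted p = 0.0935) and quantile normalisation (-1.01, 0.0753), on lane 1 (0.125) or lane 2 alone (0.0758), without a filter (0.117), with the compared groups alone (0.0808) and with the library number as a covariate (-0.48, 0.574). It was also lost without control 1, 2 or 3 or rosoxacin 1, 2 or 3 (limma adjusted p = 0.0652 to 0.0875).

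The WTCPM mice had intermediate Tlr12 levels of 0.774, 0.835, 0.703 and 0.591 FPKM (0.726 ± 0.105, n = 4), and the dexamethasone mice had 0.833, 0.678, 0.622 and 0.349 (0.62 ± 0.202). Against control the log2 difference was -0.37 for WTCPM and -0.61 for dexamethasone (limma adjusted p = 0.894 and 0.863). Tlr11 had group means of 0.339 ± 0.109 FPKM in WTCPM, 0.317 ± 0.0938 in control, 0.232 ± 0.0492 with dexamethasone and 0.185 ± 0.0539 with rosoxacin (n = 4 each). Rosoxacin against WTCPM gave -0.61 for Tlr11 and -0.54 for Tlr12 (limma adjusted p = 0.209 and 0.224), both of which passed after rescaling to TPM (-0.96 and -0.93, adjusted p = 0.0296 and 0.025). With median-of-ratios scaling they were -0.43 and -0.33 (limma adjusted p = 0.455 and 0.531), and with the library number as a covariate Tlr12 was at -0.28 (0.653). Of the 4 Toll-like receptors measured, Tlr9 alone had a higher mean in rosoxacin than in WTCPM mice as deposited, and after rescaling to TPM its difference was -0.028.

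**Figure D4:**
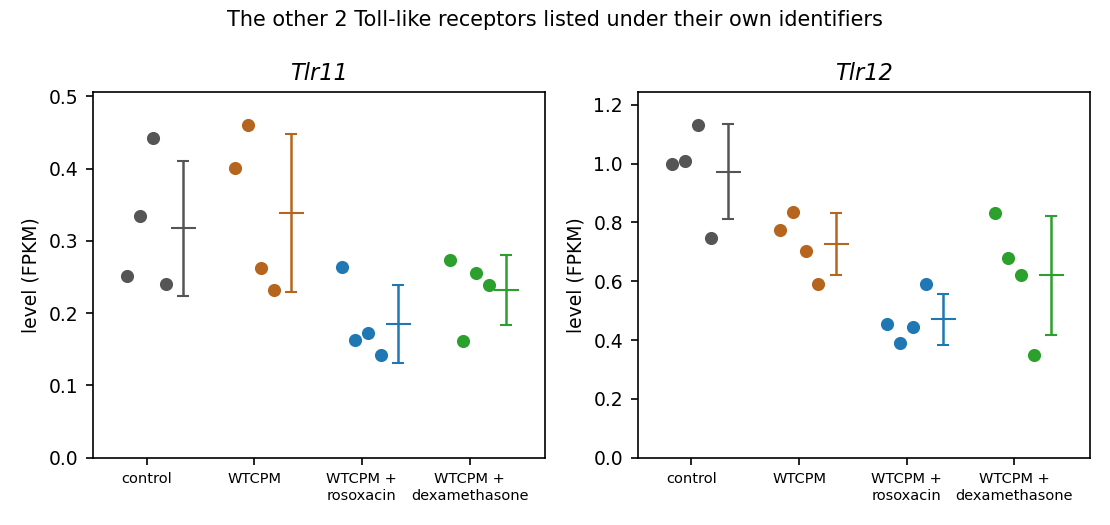
Levels of Tlr11 and Tlr12 in FPKM on the y axis, 1 point per mouse in 4 groups of 4, with bars giving the mean ± SD. All 4 rosoxacin mice lie at or below 0.591 for Tlr12, under the lowest control at 0.746.

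The 4 tested response genes of Toll-like receptor signalling had higher means after dust than in control, and 0 passed the test. Cxcl2, a neutrophil chemokine induced through NF-kB, was at 0.534 ± 0.28 FPKM in WTCPM and 0.188 ± 0.102 in control mice (limma adjusted p = 0.356, n = 4 each). Cxcl1, another neutrophil chemokine, was at 0.36 ± 0.0788 and 0.289 ± 0.168. Il12b, which encodes a subunit shared by interleukin 12 and interleukin 23, ranged from 0.135 to 0.37 FPKM in WTCPM mice and from 0 to 0.233 in controls. Ccl4, a chemokine for monocytes and T cells, ranged from 0 to 0.343 and from 0 to 0.29, and Cfi, whose product cleaves C3b, from 0 to 0.139 and from 0 to 0.164. Il6, a response gene below the filter and so not tested, ran the other way, with 0.0332 to 0.131 FPKM in controls and 0 to 0.0395 in WTCPM mice. It was 0.0533 to 0.677 with rosoxacin and 0 to 0.0656 with dexamethasone. A value of 0 is given here as listed, since depth is unknown. The 5 tested genes overlapped between these groups.

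The genes whose levels followed the 3 receptors most closely over the 16 mice were picked from 869 other protein-coding genes by Pearson correlation of log2(FPKM + 0.1), as a description. The mice share library scaling and group, so no p-value is given. Genes picked in the same 16 mice tend to share the highest or lowest group of their receptor, so that likeness is no separate result. For Tlr9 they were Pacsin1 (r = 0.835), Gm49425 (0.791), Klhl30 (0.74), Tssk4 (0.738) and Ripor3 (0.716), and each had its highest group mean in rosoxacin. The mean of Pacsin1 was 0.346 FPKM with rosoxacin, against 0.209 in control, 0.203 in WTCPM and 0.166 with dexamethasone. It is the one marker of plasmacytoid dendritic cells with an identifier of its own, out of 9 listed. It ranged from 0.265 to 0.501 FPKM in rosoxacin mice and from 0.13 to 0.198 in dexamethasone mice. The rosoxacin difference of Pacsin1 did not pass (limma adjusted p = 0.236 against WTCPM, 0.223 against control and 0.0733 against dexamethasone). All rosoxacin mice lay above all dexamethasone mice in 3.46% of the tested genes. The part of Pacsin1 in the Tlr9 levels was not tested.

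For Tlr6 the closest genes were Arsj (r = 0.781), Gpr55 (0.732), Tram1l1 (0.73), Cldn34c3 (0.704) and Scn2a (0.696), all with their lowest group mean in rosoxacin. For C3ar1 they were Cxcl2 (r = 0.695), Rxfp4 (0.659), Aunip (0.617), Pnmal2 (0.61) and G6pd2 (0.608), and each had its highest group mean in WTCPM. The choice by correlation favours such shared groups. After each gene was centred on its group means, r was 0.415 to 0.678 for the 5 genes of Tlr9, highest for Pacsin1, and 0.382 to 0.643 for those of Tlr6. For those of C3ar1 it spread from 0.183 for G6pd2 and 0.33 for Rxfp4, through 0.524 for Cxcl2, to 0.897 for Pnmal2. Among the receptors themselves r was 0.422 for C3ar1 with Tlr6, 0.091 for C3ar1 with Tlr9 and -0.27 for Tlr6 with Tlr9, and after centring on group means 0.362, 0.465 and 0.392.

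Of the 14 neutrophil markers 4 had identifiers, and their summed level was 0.479 to 1.07 FPKM in control and 0.606 to 0.924 in WTCPM mice. It was 0.837 to 1.69 with rosoxacin and 1.29 to 2.39 with dexamethasone. The share of tested genes with such gaps is not given, so the sums are a description. Asprv1 passed as higher with dexamethasone than in control (limma adjusted p = 0.0247), where 0.0364% of the tested genes passed. It also passed as lower with rosoxacin than with dexamethasone (0.0478), where 4.26% did. Cxcr2, the other tested marker, passed in neither (0.737 and 0.504). The defining marker Ly6g was listed at 0 in all WTCPM and rosoxacin mice. The dexamethasone group, with the highest sum, had the highest mean of Tlr6 and the lowest of Tlr9. The rosoxacin group, whose sum reached 1.69, had the reverse, with the lowest mean of Tlr6 and the highest of Tlr9. The part of neutrophils in these levels was not tested. Among dendritic cell markers, 1 of 9 conventional ones had an identifier, Xcr1. It was at 0.589 ± 0.0488 FPKM in WTCPM mice and 0.405 ± 0.0364 in controls, and did not pass (limma adjusted p = 0.854). It was 0.367 ± 0.0769 with rosoxacin and 0.50 ± 0.137 with dexamethasone. Its group means, like those of C3ar1, were highest in WTCPM. Unlike those of C3ar1, which were lowest in control, they were lowest in rosoxacin. The part of Xcr1 in the C3ar1 levels was not tested.

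Summed levels of 2 other marker lists are given for the dust and control groups in which C3ar1 was compared. None of their tested genes passed there (limma adjusted p = 0.131 for Lep, 0.324 for Hcar1, 0.936 for Gata1 and 0.894 for Il5ra). Of the 6 adipocyte markers 2 had identifiers, Lep and Hcar1, and their summed level was 0.366 to 1.9 FPKM in control and 0.0953 to 0.137 in WTCPM mice, with 0.127 to 0.53 with rosoxacin and 0.231 to 0.488 with dexamethasone. Of the 12 markers of mast cells, basophils and eosinophils 9 had identifiers, with sums of 0.58 to 1.28 in control, 0.283 to 0.443 in WTCPM, 0.354 to 0.662 with rosoxacin and 0.507 to 0.653 with dexamethasone. Among the latter, Tpsb2, Fcer1a and Prg2 were listed at 0 in all WTCPM mice, but also in all dexamethasone mice and in at least 1 control. Gata1 and Epx ran the other way, with means of 0.161 and 0.0023 FPKM in control and 0.202 and 0.0064 in WTCPM mice. Control and WTCPM mice did not overlap in either the adipocyte or the mast cell, basophil and eosinophil sum. How common such a gap between these groups is among the tested genes is not given, so both sums are a description. Between control and WTCPM both sums ran in the opposite direction to the C3ar1 means, and their part in the C3ar1 difference was not tested.

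**Figure D5:**
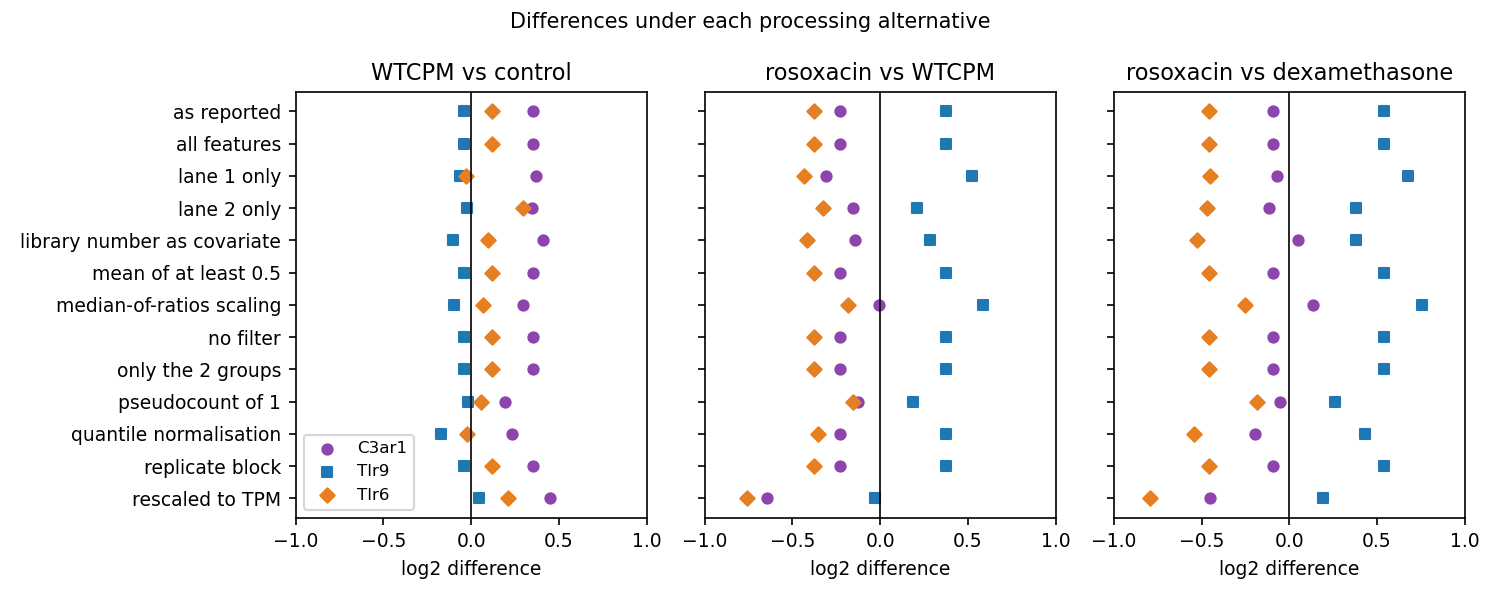
Log2 differences of C3ar1, Tlr9 and Tlr6 on the x axis under each processing alternative, for dust against control, rosoxacin against WTCPM and rosoxacin against dexamethasone. C3ar1 stays above 0 in every row for dust against control (0.19 to 0.45), and rescaling to TPM brings Tlr9 to -0.028 for rosoxacin against WTCPM. Rows that change only the genes tested, the groups fitted or the block repeat the reported difference.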

How the data were processed

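The build mm10 and the tools StringTie 2.1.5, SAMtools 1.12, HISAT2 2.2.1, HISAT, FastQC and R 4.0.4 are named, per the submitters' processing notes, without order or settings. The annotation is not stated there. The values deposited by the authors are FPKM for 186512 transcripts in 32 libraries. Transcripts were summed per identifier, the 2 lanes of a mouse were averaged, and symbols came from GENCODE M21, which matched 25510 of 26305 Ensembl identifiers without their version.

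Tests were run on log2(FPKM + 0.1), a scale that understates changes of low genes, over the 2749 annotated genes averaging at least 0.1 FPKM. The tool was limma 3.58.1 under R 4.3.3, with lmFit, contrasts.fit and a trended eBayes. All 4 groups entered 1 fit, which gave 6 comparisons. P-values were adjusted by Benjamini-Hochberg over those genes, and an adjusted p under 0.05 was the threshold. The procedure was tested on simulated data. The 3 genes and the lists were chosen with earlier results of these data known. Named were the 3 genes, the 5 protein-coding genes most correlated with each, and the tested members of the pathway lists; Sarm1, Il6, Fcnb, the genes listed at 0 and the cell type markers were named after their values were seen. Alternatives were 3 rescalings, a pseudocount of 1 FPKM, no filter, a mean of at least 0.5 FPKM, all features, single lanes, the 2 compared groups, a replicate block, the library number as covariate, and each mouse left out. Promoter sequences are from RefSeq (GRCm38.p6), where all 3 symbols matched, and the motifs were chosen after the windows were seen. Tables and plots were made in Python 3.11.15 with matplotlib 3.10.9.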

Additional observations from a re-analysis of the deposited data

Results flagged for a closer look

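In groups of 4 mice, a mouse was singled out when its gap to the next one, as a share of the group's range, exceeded Dixon's 95% critical value. This was examined in 40 groups, over the 3 receptors and the other tested pathway genes, where chance gives about 1 in 20, and 2 were singled out. Control 1 had 0.34 FPKM of Cxcl2 against 0.125 to 0.157 in the other controls. Control 1 also had 0.29 FPKM of Ccl4, which was listed at 0 in the other controls. No mouse was singled out for Tlr6, Tlr9 or C3ar1.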

How the results depend on the processing

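The 18 differences of Tlr6, Tlr9 and C3ar1 were recomputed in 12 settings, which gave 216 values, of which 205 kept their direction and side of the threshold, 8 changed sign and 3 newly passed. The filters, all features, the compared groups alone and the replicate block leave each difference as it was. Its sign could not change there, and only its adjusted p could, so the tally overstates stability of direction. All 3 came with rescaling to TPM: C3ar1 (-0.65) and Tlr6 (-0.76) for rosoxacin against WTCPM and Tlr6 (-0.79) for rosoxacin against dexamethasone. Signs changed, without passing, with TPM for C3ar1 in rosoxacin against control (-0.20) and for Tlr9 in dust against control (0.0433) and rosoxacin against WTCPM (-0.028), for C3ar1 between the drugs with the library number (0.0507) or median-of-ratios scaling (0.13), for Tlr6 in dust against control on lane 1 (-0.0269) or with quantile normalisation (-0.021), and for Tlr6 in dexamethasone against control on lane 1 (-0.0088). For Tlr11 in dust against control (0.0654) the sign changed on lane 2 (-0.0123) and with quantile normalisation (-0.0558), and for Tlr12 between the drugs (-0.30) with the library number (0.14). Apart from the rescalings, the lanes and the covariate, which are what those settings change, the cause was not tested.

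Leaving out 1 mouse gave 288 values for the 3 receptors, 284 of which kept direction and side. A mouse outside the compared groups cannot change a difference, so the values without such a mouse kept their direction by construction. The ranges with a change of sign were -0.015 to 0.19 for Tlr6 and -0.15 to 0.0884 for Tlr9 in dust against control, and -0.0628 to 0.20 for Tlr11 there.

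The setting of all features also tested the unnamed assembled loci, so its counts are not of annotated genes alone. Counts of called genes depended on the setting. For dust against control (0 as reported by limma, with 141 at an unadjusted p under 0.05) they were 10 over all features, 2 without a filter, and 1 each on lane 1, with a pseudocount of 1 and with the replicate block, and 0 to 1 without a mouse. For rosoxacin against WTCPM (15, 3 risen and 12 fallen; with median-of-ratios scaling 4 and 6) they were 5690 over all features, 270 with TPM, 23 at a mean of at least 0.5 FPKM, 6 with quantile normalisation, 5 without a filter, 3 with the library number or the 2 groups alone, 0 on lane 1, and 2 to 24 without a mouse. For rosoxacin against control (91, 18 risen and 73 fallen; with median-of-ratios scaling 20 and 24) they were 6498 over all features, 262 with TPM, 44 with median-of-ratios scaling, 34 with quantile normalisation, 32 at 0.5 FPKM, 24 with the 2 groups alone, 21 with a pseudocount of 1, 16 and 7 on lanes 2 and 1, 7 without a filter, 0 with the library number, and 11 to 122 without a mouse. For rosoxacin against dexamethasone (117, 15 and 102; with median-of-ratios scaling 24 and 14) the same settings in that order gave 8030, 310, 38, 30, 51, 12, 57, 7 and 3, 15, 0, and 14 to 162. For dexamethasone against WTCPM (0, with 148 at an unadjusted p under 0.05) there was 1 with a pseudocount of 1. For dexamethasone against control (1) there were 2 over all features, on lane 2, without a filter and with TPM, 0 in the other settings that changed it, and 0 to 3 without a mouse.

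The replicate block, with the mouse number as the block, changed no call of the 3 receptors. The labels do not say that a number is shared between groups, and of 24 pairs with the same number 4 had deviations correlated above 0.1, with a median of 0.027, so the numbers are not taken to pair mice. With 4 mice a group, limits of precision come from the mice and lanes, since depth is unknown.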
